A study of Mus musculus with 6 samples.

Results

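Cytochrome P450 enzymes (symbols starting with Cyp) were examined across lung RNA of Cd-treated and control mice on 6 Affymetrix Mouse Gene ST 2.0 arrays. Members were all genes whose symbol is Cyp followed by a family number, a subfamily letter and a gene number, measured by probe sets annotated with exactly 1 gene symbol. That rule gave 90 genes of 22180 genes on the array, from 94 probe sets, in 38 subfamilies of 15 families, and the rule itself uses no measured value. For the 4 genes with more than 1 probe set, the probe set with the highest mean over the 6 arrays was taken.

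Cd-treated mice (n = 3) drank water with 10 mg/L CdCl2, and control mice (n = 3) drank water with 0 mg/L. Mice of both groups were male C57Bl6 animals that entered the study at 8 weeks of age, stayed in housing for 20 weeks and were 28 weeks old at the end. Both groups ate chow that itself held some Cd, and airway resistance was measured under anesthesia before the lungs were taken. The paper describes that measurement with tracheotomy, mechanical ventilation and rising doses of inhaled methacholine. The labels call the arrays of a group biological replicates. All values below are log2 RMA values (background-corrected, normalized and summarized probe brightness on a log2 scale), and every difference is Cd-treated minus control on that scale.

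P450 enzymes are heme proteins that put oxygen into their substrates, with electrons passed on by cytochrome P450 reductase in the endoplasmic reticulum or by ferredoxin in mitochondria. Families 1 to 3 mostly oxidize foreign compounds, family 4 and part of family 2 act on fatty acids and eicosanoids, and the rest make or clear sterols, bile acids, steroid hormones, vitamin D and retinoic acid. The liver holds most xenobiotic P450 activity, while in rodent lung the club cells of the small airways are the main site, with Cyp2f2, Cyp4b1 and Cyp2b10 among their best known enzymes.

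Members were called lung-expressed where their mean over the 6 arrays was above 5.73, the 95th percentile of the means of 1088 olfactory receptor genes, which are expected to be off in most lung cells. The other members are called silent, as a working name only, since probe sets differ in brightness at equal RNA and a dim probe set can belong to an expressed gene. By this cut-off 11 members (12.2%) were lung-expressed and 79 were silent, against 32.7% of all genes above the cut-off. The sample was lung by its markers: 6 of 6 lung genes were above the cut-off, among them Sftpc, Scgb1a1 and Ager, whereas 8 of 9 hepatocyte genes, Alb among them, were not.

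The arrays differed among themselves in ways the groups do not explain, and 2 of them stood apart by markers of several cell types. Array medians lay between 4.86 and 5.12 and pairs of arrays correlated at 0.82 to 0.97. Cd-treated replicate 3 had the lowest mean of 9 club cell markers, 8.58, whereas the other arrays lay between 9.61 and 9.91. It also had the lowest means of ciliated cell markers (6.47) and smooth muscle markers (6.67), with 6 of 6 genes of each list lowest there. Control replicate 3 had a mean of 8.58 over 8 skeletal muscle markers, against 4.90 to 5.20 on the other arrays. Its mean of 7 squamous epithelium markers was also the highest (6.03), with Krt4 (7.78), Krt13 (8.38) and Krt14 (5.42) well above the other arrays. Sprr1a (5.51) and Sbsn (5.52) were lowest on this array, and Krt6a and Dsg3 were within or near the range of the others. Means of endothelium (8.07), alveolar type 1 (8.59), alveolar type 2 (9.96) and fibroblast markers (8.00) were highest there as well. Heart muscle markers differed with the groups, with means of 7.12, 8.34 and 7.71 on the Cd-treated arrays, against 9.38, 8.60 and 8.64 on the control arrays. At an unadjusted p under 0.05, 4 of 7 of them and 2 of 6 smooth muscle markers were lower, against 0.622% of all genes. Arrays measure bulk lung, so fewer cells of a type and less RNA per cell cannot be told apart in any value below.

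The lung-expressed members were Cyp2f2, Cyp4b1, Cyp2b10, Cyp2a22, Cyp2s1, Cyp39a1, Cyp2d22, Cyp4v3, Cyp2c39, Cyp2a12 and Cyp2e1. Of these, 8 are xenobiotic enzymes of family 2, 2 act on fatty acids (Cyp4b1 and Cyp4v3) and 1 acts on sterols (Cyp39a1). None of the 3 Cyp1, 7 Cyp3a, 5 steroid hormone, 3 vitamin D or 3 retinoic acid members was above the cut-off. Cyp2e1 (mean 5.90) was just above the cut-off and Cyp20a1 (mean 5.64) just below it.

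**Figure D1:**
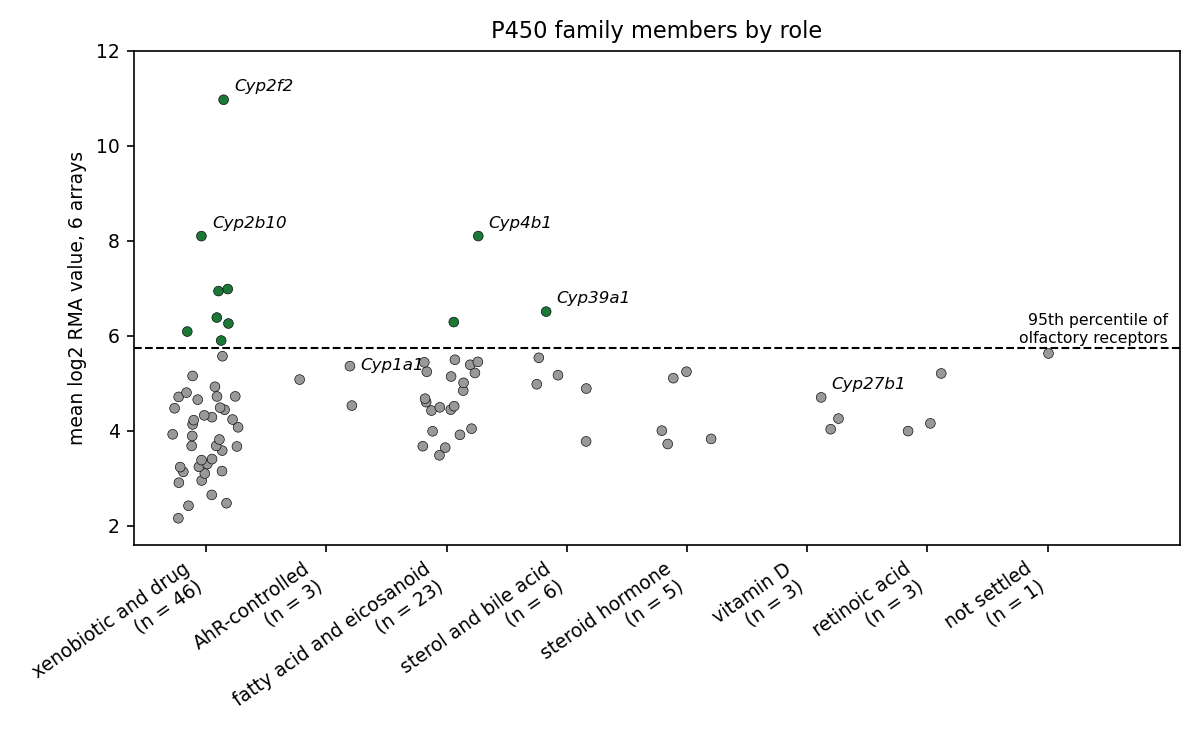
Mean log2 RMA value over 6 arrays (vertical axis) of each of the 90 P450 genes, grouped along the horizontal axis by role; horizontal scatter within a group only separates the points. Green points are the 11 lung-expressed genes above the dashed line at 5.73, grey points the 79 silent genes, and Cyp2f2 is the topmost point at 10.97.

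Most P450 genes of families 2 to 4 lie in gene clusters. In the order of the RefSeq annotation, the Cyp2 cluster of chromosome 7 held 13 members, of which 5 were lung-expressed (Cyp2s1, Cyp2b10, Cyp2a22, Cyp2a12 and Cyp2f2). The Cyp2d cluster of chromosome 15 held 9 members and the Cyp2c cluster of chromosome 19 held 13, each with 1 lung-expressed gene. No member of the Cyp2j cluster (7 genes), the Cyp3a cluster (6 genes) or the Cyp4f cluster (8 genes) was above the cut-off. Genes of one cluster are close in sequence, and signal from a paralog on a probe set was not tested.

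The first question was whether any P450 gene differed between Cd-treated and control lung. In limma's moderated test, 1 of 90 members had an unadjusted p under 0.05 (Cyp27b1, higher in Cd-treated lung) and 89 had not. That share, 1.11%, was next to the 1.19% of all genes that passed the same threshold. By direction, 1 member was higher and 0 were lower, against 0.564% of all genes higher and 0.622% lower. After Benjamini-Hochberg adjustment over all 41345 probe sets, 0 members passed 0.05, and the smallest adjusted p of any member was 0.992, as it was for the whole array. All 3 Cd-treated arrays were above all 3 control arrays for 2 members, Cyp27b1 and Cyp2u1, and below them for 0 members. These 2 of 90 (2.22%) compare with 7.14% of all genes whose groups did not overlap, 3.81% higher and 3.33% lower.

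Differences were small in both directions. The median log2 difference of all 90 members was 0.07, against -0.02 for all genes. A positive difference was found for 59 members (65.6%) and a negative one for 31, against 47.2% positive among all genes, but with cyclic loess or a further quantile normalization 43 of 90 members were positive and the median was -0.01 in both. Among lung-expressed members 5 differences were positive and 6 negative, with a median of -0.10, which turned to 0.06 with cyclic loess and 0.00 with a further quantile normalization. All genes above the same cut-off had a median of -0.18, with 22.4% of them positive, and the median was -0.02 with cyclic loess, -0.10 with a further quantile normalization and -0.03 without control replicate 3. Among silent members 54 were positive and 25 negative, with a median of 0.07 that turned to -0.01 with cyclic loess and with a further quantile normalization. All genes at or below the cut-off had a median of 0.05, with 59.3% positive. At an unadjusted p under 0.05, 1 of the 79 silent members passed, against 1.14% of all genes at or below the cut-off. In the deposited scaling 6 members differed by more than 0.5, each with a higher mean in Cd-treated lung. With cyclic loess Cyp27b1, Cyp3a25 and Cyp2c23 were at 0.47, 0.48 and 0.45, and Cyp2a4 was at -0.56.

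**Figure D2:**
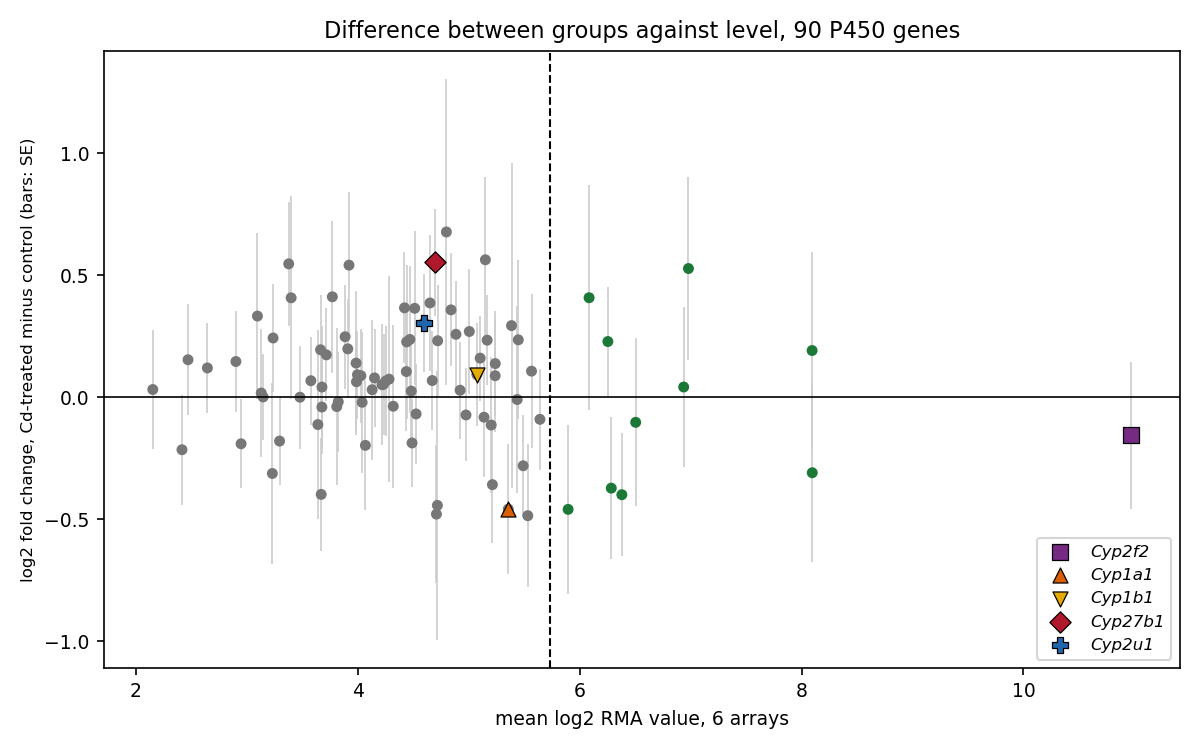
Log2 fold change (Cd-treated minus control, vertical axis, bars are 1 standard error of the limma fit) against mean log2 RMA value over 6 arrays (horizontal axis) for 90 P450 genes. Green points right of the dashed line at 5.73 are lung-expressed, grey points silent, and 5 genes are marked by symbol; Cyp27b1 at 0.55 is the only gene with an unadjusted p under 0.05.

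Single arrays stood at the extremes of these values. Median values of the silent members were 4.17, 4.31 and 4.47 on the Cd-treated arrays, against 4.31, 4.33 and 3.98 on the control arrays. Cd-treated replicate 3 thus had the highest of these 6 medians and control replicate 3 the lowest. Of the 79 silent members, 24 (30.4%) were highest on Cd-treated replicate 3, as were 31.0% of all genes at or below the cut-off, and 34 (43.0%) were lowest on control replicate 3, as were 35.3% of those genes. Of the 11 lung-expressed members, 6 (54.5%) were lowest on Cd-treated replicate 3, as were 53.3% of all genes above the cut-off, and 6 (54.5%) were highest on control replicate 3, as were 63.1% of those genes. Without Cd-treated replicate 3 the median difference of the lung-expressed members was 0.15, without control replicate 3 it was 0.04, and without control replicate 3 the silent median was 0.03.

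**Figure D3:**
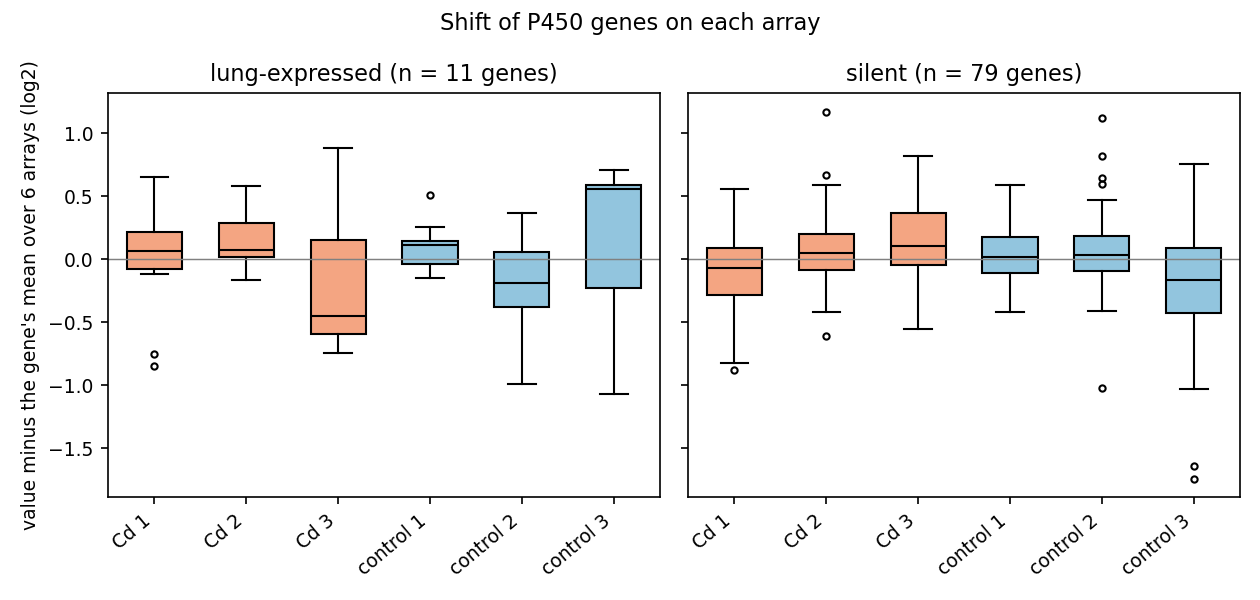
Deviation of each P450 gene from its own mean over 6 arrays (log2, vertical axis) on each array (horizontal axis), as boxes with median and quartiles, with whiskers and single outlying points. Among the 11 lung-expressed genes the box of Cd-treated replicate 3 lies low and the median of control replicate 3 high, and among the 79 silent genes Cd-treated replicate 3 lies high and control replicate 3 low.

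Cyp2f2 is the club cell enzyme that turns naphthalene and styrene into reactive epoxides in mouse lung. Its values were 11.20, 11.25 and 10.22 on the Cd-treated arrays, against 11.10, 11.03 and 11.002 on the control arrays. The control arrays lay within the range of the Cd-treated ones, and Cd-treated replicate 3 alone was low. Cyp2f2 averaged 10.89 ± 0.58 in Cd-treated lung and 11.05 ± 0.05 in control lung (SD, n = 3 each), a difference of -0.16 (SE 0.30, limma 95% interval -0.87 to 0.56, adjusted p = 0.992, exact permutation p = 1.0). Without Cd-treated replicate 3 the difference was 0.18, so its sign rested on that array. The second Cyp2f2 probe set gave 7.76, 7.66 and 6.95 on the Cd-treated arrays, against 7.68, 7.55 and 7.52 on the control arrays, with the same array low.

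Of 9 markers of club cells, which hold Cyp2f2, 6 were also lowest on Cd-treated replicate 3. Among all genes above the cut-off, 53.3% were lowest on Cd-treated replicate 3 as well, a count that ignores the size of the drop. Means of all genes above the cut-off were 6.69, 6.60 and 6.36 on the Cd-treated arrays, against 6.65, 6.55 and 6.93 on the control arrays. Cldn10 and Ces1d were lowest on control replicate 2 and Scgb1a1 on control replicate 1. Of these 9 markers, 1 passed an unadjusted p of 0.05, against 1.19% of all genes. It was Scgb3a1, with 8.38, 11.11 and 6.62 on the Cd-treated arrays, against 11.13, 11.10 and 10.98 on the control arrays (difference -2.37, limma adjusted p = 0.992). List means were 9.61, 9.91 and 8.58 on the Cd-treated arrays, against 9.84, 9.62 and 9.87 on the control arrays, and all 9 markers were above the cut-off. The club cell secretoglobin Scgb1a1 did not share the low value, with 12.79, 12.87 and 12.82 on the Cd-treated arrays, against 12.59, 12.91 and 12.70 on the control arrays. Means of 8 secretory genes of the large airways were 5.46, 7.42 and 4.85 on the Cd-treated arrays, against 7.51, 7.41 and 7.62 on the control arrays. Of these 8 genes, 4 (Bpifa1, Bpifb1, Ltf and Reg3g) were lower at an unadjusted p under 0.05, against 0.622% of all genes. The part of these cell types in the P450 values was not tested.

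Cyp4b1, a lung enzyme that activates the toxin ipomeanol, gave 8.21, 8.25 and 7.36 on the Cd-treated arrays, against 8.35, 7.65 and 8.75 on the control arrays. The groups overlapped, with Cd-treated replicate 3 lowest and control replicate 3 highest. The difference of Cyp4b1 was -0.31 (SE 0.37), but leaving out Cd-treated replicate 3 gave -0.02, leaving out control replicate 3 gave -0.06 and leaving out control replicate 2 gave -0.61. Cyp2b10, the phenobarbital-inducible target of the receptor CAR in mouse liver, gave 8.30, 8.38 and 7.90 on the Cd-treated arrays, against 8.24, 7.10 and 8.65 on the control arrays. Both extremes of Cyp2b10 were control arrays, and its difference of 0.19 (SE 0.40) was -0.26 without control replicate 2. Cyp2s1, an enzyme of epithelia outside the liver, gave 7.59, 6.99 and 6.30 on the Cd-treated arrays, against 6.95, 6.81 and 6.998 on the control arrays. The spread of Cyp2s1 lay almost wholly within the Cd-treated group, and the difference was 0.04 (SE 0.33).

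Cyp2a22 showed a difference of 0.53 (SE 0.38), with 6.95, 7.37 and 7.42 on the Cd-treated arrays, against 6.89, 7.35 and 5.91 on the control arrays. Only control replicate 3 was apart, and without it the difference was 0.13. Cyp2a12, a neighbour in the same cluster, gave 5.24, 6.66 and 6.97 on the Cd-treated arrays, against 6.24, 5.90 and 5.51 on the control arrays, with a difference of 0.41 (SE 0.46), which was 0.93 without Cd-treated replicate 1 and 0.07 without Cd-treated replicate 3. Cyp2e1, the ethanol- and acetaminophen-oxidizing enzyme, gave 5.14, 5.89 and 5.97 on the Cd-treated arrays, against 6.40, 5.51 and 6.46 on the control arrays. Its groups overlapped through control replicate 2, and the difference was -0.46 (SE 0.35).

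The remaining lung-expressed genes had their extremes on Cd-treated replicate 3 and control replicate 3. Cyp39a1, which hydroxylates oxysterols on the way to bile acids, gave 6.89, 6.52 and 5.95 on the Cd-treated arrays, against 6.43, 6.12 and 7.12 on the control arrays (difference -0.10, SE 0.34, 0.06 with cyclic loess). Cyp2d22, the mouse counterpart of the human drug enzyme CYP2D6, gave 6.26, 6.39 and 5.89 on the Cd-treated arrays, against 6.23, 6.57 and 6.94 on the control arrays. The difference of Cyp2d22 was -0.40 (SE 0.25), and its unadjusted limma p of 0.157 was the smallest of the 11 lung-expressed genes. Cyp4v3, counterpart of a human fatty acid hydroxylase, differed by -0.37 (SE 0.29), and Cyp2c39, a retinoic acid hydroxylase of mouse liver, by 0.23 (SE 0.22). Unlike the others, Cyp2c39 was highest on Cd-treated replicate 3 (6.48) and lowest on control replicate 3 (5.75). Its difference was 0.04 without control replicate 3. Of the 11 genes, 0 passed an unadjusted p of 0.05, against 1.28% of all genes above the cut-off.

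**Figure D4:**
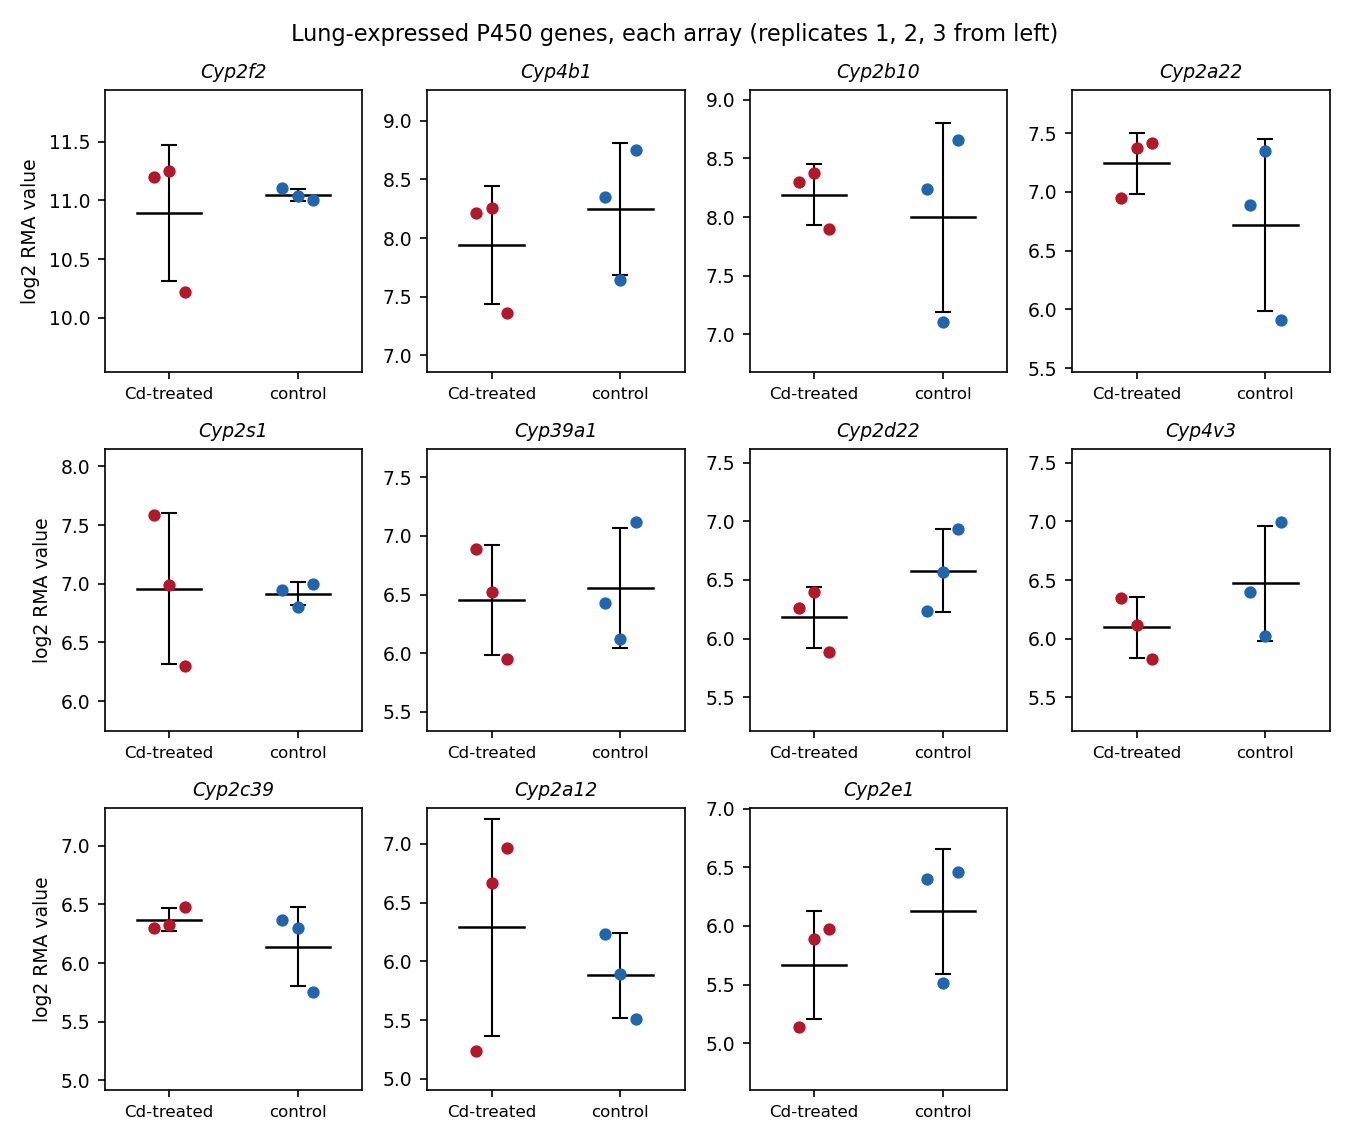
Log2 RMA values (vertical axis, each panel spanning the same 2.4 log2 units) of the 11 lung-expressed P450 genes on the 3 Cd-treated arrays (red, left) and the 3 control arrays (blue, right); horizontal lines are means and bars 1 SD. The groups overlap in every panel, and the lowest Cyp2f2 and Cyp4b1 values are both those of Cd-treated replicate 3.

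Cyp1a1, Cyp1a2 and Cyp1b1 are the classical targets of the aryl hydrocarbon receptor (AhR), which binds dioxin-like ligands, pairs with Arnt and acts through a DNA element with the core GCGTG. All 3 were silent by the cut-off. Cyp1a1 gave 4.79, 5.46 and 5.13 on the Cd-treated arrays, against 5.49, 5.30 and 5.97 on the control arrays. It was lowest on Cd-treated replicate 1 and highest on control replicate 3, and the groups overlapped. Cyp1a1 averaged 5.13 ± 0.33 in Cd-treated lung and 5.59 ± 0.34 in control lung (SD, n = 3 each), a difference of -0.46 (SE 0.27, limma 95% interval -1.08 to 0.17, adjusted p = 0.992, exact permutation p = 0.2), and the difference was -0.27 without control replicate 3.

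Cyp1b1, which also hydroxylates estradiol, gave 5.36, 5.03 and 4.97 on the Cd-treated arrays, against 4.95, 4.85 and 5.28 on the control arrays. Its groups overlapped over most of their range. Cyp1b1 averaged 5.12 ± 0.21 in Cd-treated lung and 5.03 ± 0.23 in control lung (SD, n = 3 each), a difference of 0.09 (SE 0.21, limma 95% interval -0.41 to 0.60, adjusted p = 0.992, exact permutation p = 0.5), and Cyp1a2 differed by -0.07 (SE 0.20).

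The promoters of the genes these comparisons turn on are shown from RefSeq (build GRCm38.p6), as the 250 bases before the annotated start, so that the elements named can be read beside the values. Cyp1a1 lies at chr9:57697363-57697612 on the plus strand, Cyp1b1 at chr17:79715062-79715311 on the minus strand and Cyp27b1 at chr10:127047996-127048245 on the plus strand. Capitals mark every match on either strand to the AhR core GCGTG, the metal response element core TGCACNC or TGCGCNC, the TATA box TATAAA, the GC box GGGCGG and the CCAAT box CCAAT.
Cyp1a1: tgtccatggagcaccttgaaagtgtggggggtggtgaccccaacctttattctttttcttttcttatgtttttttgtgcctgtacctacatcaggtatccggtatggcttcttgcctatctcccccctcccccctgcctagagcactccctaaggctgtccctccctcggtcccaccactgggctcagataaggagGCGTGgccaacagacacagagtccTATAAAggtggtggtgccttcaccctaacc
Cyp1b1: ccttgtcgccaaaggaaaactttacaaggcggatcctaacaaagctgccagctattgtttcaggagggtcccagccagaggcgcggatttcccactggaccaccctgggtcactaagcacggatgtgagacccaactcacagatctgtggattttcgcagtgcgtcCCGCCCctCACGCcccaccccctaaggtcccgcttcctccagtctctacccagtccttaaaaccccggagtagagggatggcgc
Cyp27b1: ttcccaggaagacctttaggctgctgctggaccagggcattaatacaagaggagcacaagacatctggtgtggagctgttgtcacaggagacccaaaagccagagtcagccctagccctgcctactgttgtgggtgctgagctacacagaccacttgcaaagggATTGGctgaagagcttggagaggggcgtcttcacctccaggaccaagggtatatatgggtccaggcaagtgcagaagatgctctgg

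In these windows Cyp1a1 held GCGTG starting 54 bases before the start and TATAAA starting 30 bases before it. Cyp1b1 held the AhR core on the other strand (CACGC) starting 76 bases before the start, next to a GC box on the other strand at 84. Cyp27b1 held only a CCAAT box, on the other strand (ATTGG), starting 86 bases before the start. None of the 3 windows held the metal response element core, which is the site bound by the zinc- and Cd-responsive factor Mtf1 at metallothionein genes. Over 27025 promoters of the same length, 28.2% held the AhR core, 21.3% the metal response element core, 13.0% TATAAA, 32.9% the GC box and 34.5% CCAAT. Of the 90 members 70 matched a promoter in the table, and of these 15 (21.4%) held the AhR core, 9 (12.9%) the metal response element core, 24 (34.3%) TATAAA, 16 (22.9%) the GC box and 29 (41.4%) CCAAT. A match of letters is a description and not a bound site.

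Among 7 measured genes of the AhR pathway outside the P450 family, 1 was lower in Cd-treated lung at an unadjusted p under 0.05 and 0 were higher. That gene was Tiparp, an AhR-induced enzyme that represses the receptor, with 6.19, 6.29 and 5.65 on the Cd-treated arrays, against 6.49, 6.50 and 6.92 on the control arrays. Its groups did not overlap, with a difference of -0.60 (SE 0.25, unadjusted limma p = 0.0463, adjusted p = 0.992, exact permutation p = 0.1). The call was lost without Cd-treated replicate 1, Cd-treated replicate 3 or any of the control arrays, and with a further quantile normalization, the filter on low values, the methods' t-test, the replicate number as a block, a trended and robust prior and array weights (difference -0.26). The receptor Ahr itself differed by -0.12 (SE 0.22), its repressor Ahrr by 0.21 (SE 0.21) and the target Nqo1 by -0.09 (SE 0.26). The median over the 7 genes was -0.12, against -0.02 over all genes. Of the 7 genes 3 were above the cut-off (Tiparp, Ahr and Arnt). All genes above it had a median of -0.18, and all genes at or below it 0.05. At an unadjusted p under 0.05, 0.622% of all genes were lower and 0.564% higher.

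Cyp27b1 makes calcitriol, the active form of vitamin D, mainly in kidney and also in macrophages and epithelia. Its values were 4.60, 5.17 and 5.15 on the Cd-treated arrays, against 4.47, 4.36 and 4.44 on the control arrays. Every Cd-treated array was above every control array, although Cd-treated replicate 1 was only slightly above, and all 6 values were below the cut-off for lung-expressed genes. Cyp27b1 averaged 4.98 ± 0.32 in Cd-treated lung and 4.42 ± 0.05 in control lung (SD, n = 3 each), a difference of 0.55 (SE 0.22, limma 95% interval 0.04 to 1.07). The unadjusted limma p was 0.0383, the adjusted p was 0.992, and the exact two-sided permutation p was 0.1, the smallest that 3 against 3 arrays allow. The paper had already named Cyp27b1 among the top genes of its enriched gene sets from these same arrays. It reports that no top gene of its enriched defensin and steroid hormone sets differed significantly.

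The Cyp27b1 call at an unadjusted p under 0.05 held without Cd-treated replicate 1 and was lost without any 1 of the other arrays, with limma p between 0.0615 and 0.130, and with a further quantile normalization. Of 7 measured alveolar macrophage markers 0 passed an unadjusted p of 0.05, and their means were 5.49, 5.87 and 5.90 on the Cd-treated arrays, against 5.93, 5.69 and 6.42 on the control arrays. Means of 7 squamous epithelium markers were 4.87, 5.10 and 5.15 on the Cd-treated arrays, against 5.06, 5.02 and 6.03 on the control arrays. The part of these cells in the Cyp27b1 values was not tested.

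The other vitamin D enzymes did not pass the test. Cyp24a1, which inactivates calcitriol and is induced by it through the vitamin D receptor, gave 3.98, 4.18 and 4.06 on the Cd-treated arrays, against 4.20, 3.78 and 3.98 on the control arrays (difference 0.09, SE 0.19). Cyp2r1, the liver enzyme that makes the precursor used by Cyp27b1, gave 4.48, 4.46 and 3.91 on the Cd-treated arrays, against 4.15, 4.12 and 4.39 on the control arrays (difference 0.07, SE 0.23). For both genes the control arrays overlapped the Cd-treated ones. Of 7 vitamin D handling genes outside the family 0 passed an unadjusted p of 0.05. The receptor Vdr differed by -0.20 (SE 0.18), its partner Rxra by -0.26 (SE 0.21) and Klf4, the gene of the list with the smallest p, by -0.45 (SE 0.30).

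**Figure D5:**
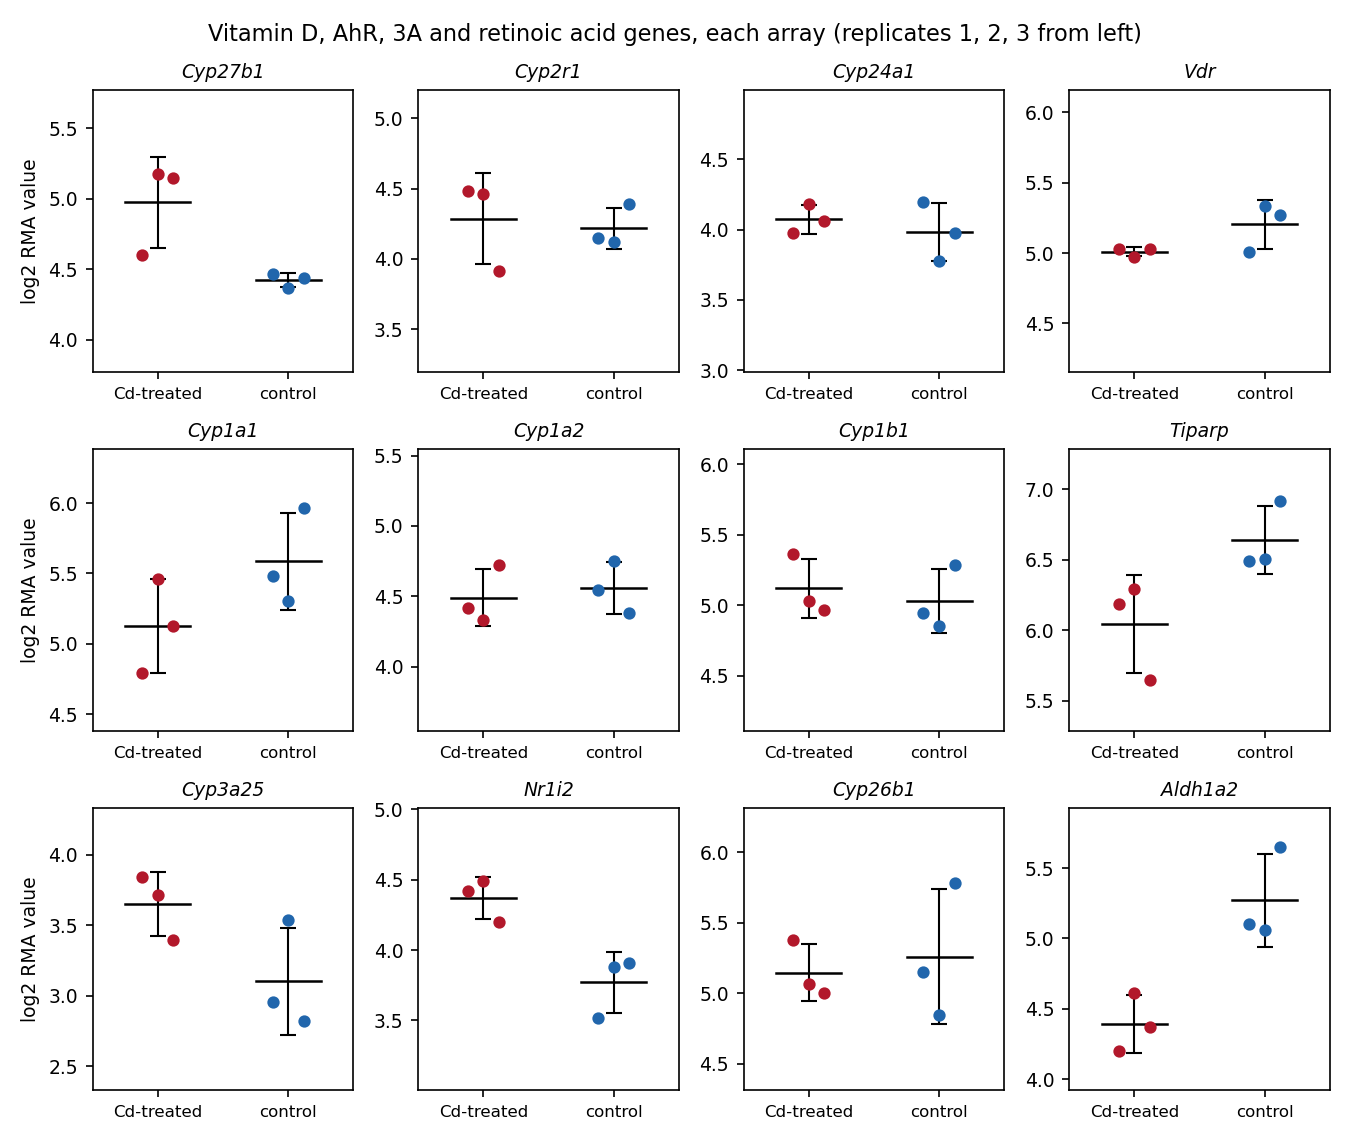
Log2 RMA values (vertical axis, each panel spanning 2 log2 units) of vitamin D genes (top), AhR targets (middle), and Cyp3a25 with its regulator Nr1i2 and Cyp26b1 with Aldh1a2 (bottom), on 3 Cd-treated arrays (red, left) and 3 control arrays (blue, right); lines are means and bars 1 SD. The groups do not overlap for Cyp27b1 and Nr1i2 (higher in Cd-treated lung) and for Tiparp and Aldh1a2 (lower in Cd-treated lung).

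The xenobiotic enzymes of families 2 and 3 made up 46 members, 8 of them lung-expressed, and 0 passed an unadjusted p of 0.05. Their median difference was 0.06, from -0.48 (Cyp2a4, a steroid hydroxylase of mouse) to 0.68 (Cyp2d13). Cyp2d13 had the largest difference of all members but did not pass, with 4.35, 5.97 and 5.10 on the Cd-treated arrays, against 5.05, 5.18 and 3.15 on the control arrays. Control replicate 3 alone was far below the others, and without it the difference of Cyp2d13 was 0.03. Cyp2d40 differed by 0.56 (SE 0.34), with control replicate 2 as its lowest array, and by 0.19 without that array. Cyp2c23, an arachidonic acid epoxygenase, differed by 0.54 (SE 0.30), by 0.27 without control replicate 3, by 0.83 without control replicate 1 and by 0.05 with array weights.

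Median differences of the xenobiotic subfamilies with several members were 0.11 for 4 Cyp2a, 0.20 for 5 Cyp2b, 0.06 for 14 Cyp2c, 0.15 for 9 Cyp2d and 0.05 for 7 Cyp3a members. All 5 Cyp2b genes had a positive difference, of 0.07 to 0.24, and none of them passed the test. Cyp2a5, the mouse enzyme that oxidizes coumarin and nicotine, gave 3.64, 4.12 and 4.16 on the Cd-treated arrays, against 4.45, 4.32 and 3.73 on the control arrays (difference -0.20, SE 0.27).

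Cyp3a25 had the smallest unadjusted p of these 46 genes, 0.0674 in limma, and an adjusted p of 0.992. It gave 3.84, 3.71 and 3.40 on the Cd-treated arrays, against 2.96, 3.54 and 2.82 on the control arrays. Only control replicate 2 overlapped the Cd-treated range, and the difference was 0.55 (SE 0.25). The other Cyp3a members differed by -0.31 (Cyp3a44) to 0.25 (Cyp3a13), and all 7 were silent by the cut-off.

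Of 15 nuclear receptors that control P450 genes, 1 was higher at an unadjusted p under 0.05 and 0 were lower. It was Nr1i2, the pregnane X receptor that controls Cyp3a genes in liver, with 4.42, 4.49 and 4.20 on the Cd-treated arrays, against 3.52, 3.88 and 3.91 on the control arrays. The groups did not overlap, all 6 values were below the cut-off, and the difference was 0.60 (SE 0.20, unadjusted limma p = 0.0200, adjusted p = 0.992, exact permutation p = 0.1). The Nr1i2 call was lost without Cd-treated replicate 1, Cd-treated replicate 2 or control replicate 1. The call was also lost with cyclic loess, with a further quantile normalization and with the replicate number as a block. Array weights gave 0.90 (limma adjusted p = 0.0399). That fit rested mostly on Cd-treated replicate 2 (weight 6.41) and control replicate 1 (weight 5.93), with the other arrays at 0.23 to 0.604. The related receptor Nr1i3 (CAR), the regulator of Cyp2b10, differed by 0.22 (SE 0.22). The median of the 15 genes was -0.06, against -0.02 over all genes. Of the 15 genes 3 were above the cut-off, where the median of all genes was -0.18, against 0.05 at or below it. At an unadjusted p under 0.05, 0.564% of all genes were higher and 0.622% lower.

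Fatty acid and eicosanoid enzymes made up 23 members, with 2 lung-expressed (Cyp4b1 and Cyp4v3), 0 past an unadjusted p of 0.05 and a median difference of 0.07. Cyp2u1, a hydroxylase of long-chain fatty acids, was the second member whose groups did not overlap, with 4.65, 4.59 and 5.02 on the Cd-treated arrays, against 4.31, 4.50 and 4.53 on the control arrays. The gap between its groups was narrow, and its difference was 0.31 (SE 0.20, unadjusted limma p = 0.170, exact permutation p = 0.1). Cyp4f14, a leukotriene hydroxylase, had the smallest p of the group and differed by -0.40 (SE 0.23). Cyp4a31 had the widest range of all members, 2.86, between 3.64 on control replicate 3 and 6.51 on control replicate 2. The 7 Cyp2j genes, which make epoxides of arachidonic acid, differed by -0.36 to 0.37, and the 9 Cyp4f genes by -0.40 to 0.37. Of 9 genes of prostanoid and lipoxygenase pathways 0 passed an unadjusted p of 0.05, among them Alox12 at 0.50 (SE 0.28) and Ptges at -0.32 (SE 0.21).

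Sterol and bile acid enzymes made up 6 members, 0 of which passed. Cyp27a1, the mitochondrial sterol hydroxylase, gave 5.43, 5.46 and 4.98 on the Cd-treated arrays, against 5.71, 5.32 and 6.29 on the control arrays. Its difference was -0.48 (SE 0.29), and -0.23 without control replicate 3. Cyp7a1, the rate-limiting enzyme of bile acid synthesis in liver, was silent, with a difference of 0.41 (SE 0.31).

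Steroid hormone enzymes made up 5 members, all silent and 0 past an unadjusted p of 0.05. Cyp11a1, which cleaves the cholesterol side chain, gave 5.35, 5.09 and 5.49 on the Cd-treated arrays, against 5.12, 5.43 and 4.96 on the control arrays (difference 0.14, SE 0.21). Cyp11b1, which makes the last step to corticosterone, had the smallest p of the group and differed by 0.16 (SE 0.17). Of 11 steroidogenesis partners 0 passed, with Hsd11b1 at -0.47 (SE 0.29) and Tspo at -0.36 (SE 0.35). Cyp20a1, an enzyme without a settled substrate, differed by -0.09 (SE 0.21).

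Cyp26a1, Cyp26b1 and Cyp26c1 clear retinoic acid, and they differed by 0.08 (SE 0.20), -0.11 (SE 0.28) and 0.06 (SE 0.21). Cyp26b1 gave 5.37, 5.06 and 5.001 on the Cd-treated arrays, against 5.15, 4.84 and 5.78 on the control arrays, so that its negative difference rested on control replicate 3 and was 0.15 without it. On the side of synthesis, Aldh1a2, which makes retinoic acid from retinal, gave 4.20, 4.61 and 4.37 on the Cd-treated arrays, against 5.10, 5.06 and 5.65 on the control arrays. The groups did not overlap, and the difference was -0.88 (SE 0.24, unadjusted limma p = 0.00736, adjusted p = 0.992, exact permutation p = 0.1). All 6 Aldh1a2 values were below the cut-off for lung-expressed genes. Aldh1a2 stayed under an unadjusted limma p of 0.05 without each array in turn, with p between 0.0105 and 0.0266. It was the only 1 of 11 retinoid handling genes that passed, against 0.622% of all genes lower at an unadjusted p under 0.05. Its neighbours in function Aldh1a1 and Aldh1a3 differed by -0.12 (SE 0.26) and 0.23 (SE 0.21). Fibroblast markers, 2 of 6 of which were lower at an unadjusted p under 0.05 (Col1a2 and Dcn), had means of 6.90, 7.06 and 6.89 on the Cd-treated arrays, against 7.45, 6.94 and 8.00 on the control arrays, and their part in the Aldh1a2 values was not tested, nor was that of the heart and smooth muscle markers lower in the same group.

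The electron donors, the heme pathway and the other oxidizing enzymes showed 0 genes at an unadjusted p under 0.05. Among 4 measured electron donors, Cyb5b differed by -0.60 (SE 0.37) and Cyb5r3 by -0.25 (SE 0.35), while the reductase Por had no probe set of its own symbol alone and was not used here. Among 11 heme genes, Alas1, which sets the pace of heme synthesis, gave 8.62, 7.85 and 6.96 on the Cd-treated arrays, against 7.89, 7.82 and 7.88 on the control arrays. The extremes of Alas1 were both Cd-treated arrays, and its difference was -0.05 (SE 0.40). Hmox1, the stress-inducible heme oxygenase, differed by -0.16 (SE 0.27), Hmox2 by -0.31 (SE 0.21) and Urod by -0.36 (SE 0.28). Among 10 flavin monooxygenases and epoxide hydrolases, Ephx4 differed by 0.34 (SE 0.22) and Fmo9 by 0.28 (SE 0.23), and the lung-rich Fmo2 by 0.11 (SE 0.24).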

How the data were processed

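Total lung RNA of 3 Cd-treated and 3 control mice was hybridized by the authors to Affymetrix Mouse Gene ST 2.0 arrays, which they summarized by RMA in the package oligo (its version is not given in the sources used here) and deposited on a log2 scale. RMA and limma stand in the submitters' processing notes. Gene symbols came from the platform annotation, and all 90 symbols matched RefSeq. Group differences were fitted in R 4.3.3 with limma 3.58.1 (lmFit and eBayes, group as the only term, prior degrees of freedom 3.06), adjusted by Benjamini-Hochberg over 41345 probe sets. Only this main limma fit was tested on simulated data. Single genes also had an exact two-sided permutation test over arrays. Intervals are limma's 95% intervals, and the number of arrays limits the precision.

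The members, roles, companion and marker lists were chosen with earlier results of these data known. Named genes were Cyp2f2, Cyp1a1, Cyp1b1, Cyp27b1, members at an unadjusted p under 0.05, the 8 largest differences, the 10 highest means, the highest mean and smallest p of each role, and those past 0.05 (or else the 2 smallest p) of each companion list. Other genes were named after their values were seen. The alternatives tried were cyclic loess, a further quantile normalization, array weights, the replicate number as a block, the methods' t-test, a prior variance that was trended and robust, a filter on low values, 1-symbol probe sets only, the mean of a gene's probe sets, other cut-offs and each array left out.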

Additional observations from a re-analysis of the deposited data

How the results depend on the processing

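Of the 90 members, 1 was higher and 0 lower at an unadjusted p under 0.05. With the replicate number as a block 0 were higher, as with a further quantile normalization and with the filter on low values, which left 28 members to test and dropped Cyp27b1. With the mean of a gene's probe sets 2 were higher, and with array weights, which passed 20.7% of all genes, 16 were higher and 7 lower, 2 of them (Cyp27b1 and Cyp3a25) at an adjusted p under 0.05. Array weights passed 903 probe sets at an adjusted p under 0.05. The weights were 6.41 for Cd-treated replicate 2 and 5.93 for control replicate 1. They were 0.604 for control replicate 2, 0.456 for Cd-treated replicate 3, 0.415 for Cd-treated replicate 1 and 0.23 for control replicate 3. The weighted fit thus rested mostly on 1 array of each group, and its adjusted p values have little replication behind them. Leaving out 1 array gave 0 to 3 higher, 0 to 2 lower, 0 to 0 adjusted, and 9 to 20 members without overlap, since 2 arrays separate more easily from 3. The share of all genes without overlap is given only for all 6 arrays (7.14%), so the 9 to 20 members cannot be set against a background. All arrays gave 2 without overlap, the further quantile normalization 1 and the filter 0. The replicate numbers did not pair the arrays (same-number correlations of deviations -0.49, 0.07 and -0.51), and the block, which leaves balanced differences as they are, ended the calls of Cyp27b1, Tiparp and Nr1i2 but not that of Aldh1a2. Cyp27b1 gave 0.55 with the block and 0.49 with the further quantile normalization, both no longer past 0.05, and 0.45 to 0.74 without 1 array. Cyp2f2 gave 0.090 with array weights and -0.33 to 0.18 without 1 array, Cyp1a1 -0.084 with array weights and -0.62 to -0.27 without 1 array, and Cyp1b1 -0.026 to 0.22. The median of all members was -0.014 with the further quantile normalization and 0.03 to 0.12 without 1 array, that of lung-expressed members -0.27 to 0.15 and that of silent members 0.03 to 0.12. The number of lung-expressed members was 23 with the median of all 1-symbol probe sets as cut-off and 6 with the 99th percentile of olfactory receptors. Signs also turned for Cyp39a1 (0.059 with cyclic loess, 0.0043 with the further quantile normalization, 0.086 with array weights), Cyb5r3 (0.00059 with cyclic loess) and, with array weights, Cyp2d22 (0.067), Cyp2c39 (-0.0027), Cyp20a1 (0.17), Cyp11a1 (-0.0089) and Fmo9 (-0.15). Without 1 array, values also crossed 0 for Cyp2b10 (-0.26 to 0.52), Cyp2s1 (-0.27 to 0.37), Cyp39a1 (-0.32 to 0.18), Cyp20a1 (-0.17 to 0.057), Cyp26b1 (-0.32 to 0.15) and Cyb5r3 (-0.59 to 0.017). Of 39 named genes 31 kept their sign without each array in turn. The cause of these changes was not tested.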

Other observations

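P450 probe sets outside the naming rule were measured too, 14 in all, of which 1 passed an unadjusted p of 0.05. The groups did not overlap for 1 higher and 1 lower probe set. For comparison, 831 of all 41345 probe sets passed the same threshold, and 7.14% of all genes had groups without overlap. Cyp4a12a, a fatty acid hydroxylase known in mouse kidney and liver, gave 4.40, 4.60 and 4.22 on the Cd-treated arrays, against 4.14, 3.75 and 3.20 on the control arrays. The groups of Cyp4a12a did not overlap, and the difference was 0.71 (unadjusted limma p = 0.0366, adjusted p = 0.992, exact permutation p = 0.1), with control replicate 3 the lowest array. Its near-identical neighbour Cyp4a12b gave 5.75, 6.19 and 6.01 on the Cd-treated arrays, against 5.84, 6.05 and 5.05 on the control arrays, a difference of 0.34. The probe set shared by Cyp4a32 and Cyp4a10 gave 2.63, 2.33 and 2.54 on the Cd-treated arrays, against 2.78, 2.91 and 2.72 on the control arrays, a difference of -0.30 with no overlap (exact permutation p = 0.1). Cyp51, the demethylase of cholesterol synthesis, differed by -0.17 (limma adjusted p = 0.992). A probe set shared by Cyp3a41a, Cyp3a41b, Cyp3a11 and Cyp3a44 gave 4.34, 5.07 and 5.80 on the Cd-treated arrays, against 4.96, 4.83 and 3.64 on the control arrays, with Cd-treated replicate 3 highest and control replicate 3 lowest.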
